A study of Sus scrofa with 24 samples.

Results

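Transcript levels of porcine subcutaneous preadipocytes were compared between the start and the end of an adipogenic culture. All libraries labelled as back fat cells (BF) of day 0 and of day 8 were taken, 3 of BF-0d and 3 of BF-8d, which made 6 of the 24 RNA libraries of the study, and every difference is day 8 minus day 0. The other 18 libraries were BF cells of days 2 and 4 and cells from fat within the longissimus dorsi muscle (IMF) of days 0, 2, 4 and 8, in 3 replicates per day. Cells of both BF groups came from the subcutaneous fat of the back of 6-day-old Yorkshire piglets, were freed with collagenase and were grown in serum-containing medium. BF-0d cells had reached near confluence in growth medium and had not been induced. BF-8d cells had then received IBMX (an inhibitor of phosphodiesterases that raises cAMP), dexamethasone (a synthetic glucocorticoid) and insulin for 2 days, insulin alone for 2 days, and plain growth medium for the rest of the time. No culture kept for 8 days without the inducers was part of this comparison, so the effects of the inducers and of time in culture cannot be told apart. The labels do not say that replicates were separate animals or cultures, so p-values measure the spread between these libraries, which may be technical.

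Preadipocytes are fibroblast-like cells of the fat stroma. When they differentiate, the transcription factors C/EBPβ and C/EBPδ are known to precede PPARγ and C/EBPα, which switch on genes for taking up, making and storing fatty acids. The stroma also makes collagen and elastic fibres, and cells that carry actin stress fibres and smooth muscle actin, known as myofibroblasts, are usually seen as the other end of the range that preadipocytes can take. In culture the cells can also release interleukins, chemokines and prostaglandins. The comparison asked where the cells stood at the end of the culture relative to its beginning.

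Values were FPKM (fragments scaled to transcript length and to the mapped fragments of the library) from the authors' own pipeline, which leave the read depth of each value unknown. Over the 6 libraries total FPKM ranged from 307967 to 339374, and 10311 to 10690 genes reached 1 FPKM. Differences were tested as log2(FPKM + 1) with limma on 16135 genes, and calls required an adjusted p (Benjamini-Hochberg) under 0.01 together with a log2 fold change of at least 1 in either direction. The added 1 FPKM shrinks the differences of weakly expressed genes. Replicates of BF-0d correlated at 0.993 to 0.994 across genes, and those of BF-8d at 0.969 (replicates 1 and 2), 0.987 and 0.988. Genes are not independent replicates, and these values only describe the libraries. Values below are FPKM as mean ± SD of 3 libraries, or are given for replicates 1, 2 and 3 in that order.

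By day 8, 2206 genes were called, which is 13.7% of the genes tested. Of these, 1014 (6.28%) were higher and 1192 (7.39%) were lower on day 8. The larger changes leaned the other way, since 377 genes were called higher and 216 lower by at least 2 on the log2 scale, and 74 and 26 by at least 4. The median difference over all genes tested was -0.06, with quartiles at -0.43 and 0.22. Which direction held more calls depended on the scaling. With median ratio scaling of the FPKM, 1262 genes were called higher and 888 lower, and the share called higher moved from 46.0% to 58.7%. For 2184 of the 2206 called genes the 3 libraries of BF-8d lay wholly above or below those of BF-0d, but so did those of 61.4% of all genes tested. Separation of the 6 values alone was therefore common in this comparison.

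**Figure D1:**
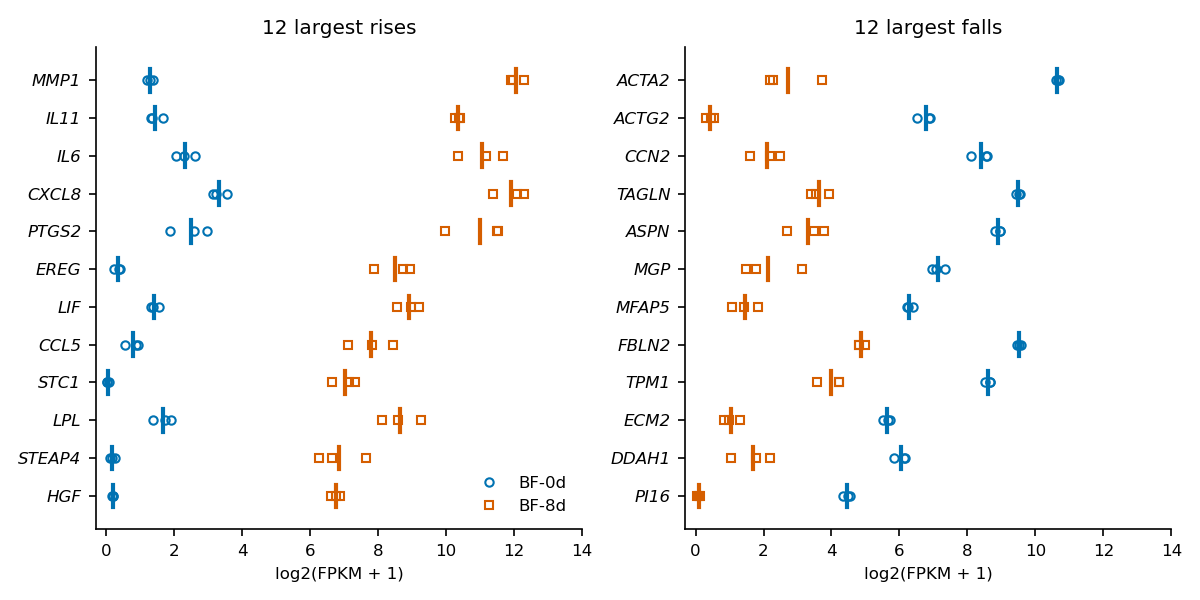
Levels of the 12 genes with the largest rise and the 12 with the largest fall, as log2(FPKM + 1) on the horizontal axis, with 1 symbol per library and a bar at the group mean. BF-0d (circles) and BF-8d (squares) do not overlap for any of the 24 genes, because only called genes with a symbol and without overlap could be drawn. Among such genes MMP1 has the largest rise and ACTA2 the largest fall.

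Among called genes with a symbol whose groups did not overlap, the largest rise belonged to MMP1, the interstitial collagenase that cleaves fibrillar collagen. Its levels were 1.31, 1.43 and 1.58 FPKM in the BF-0d libraries and 3820.2, 4047 and 4982 FPKM in the BF-8d libraries. MMP1 was thus near the added 1 FPKM in every day 0 library and high in every day 8 library (log2 fold change 10.77, SE 0.86, adjusted p = 8.3e-09). Next in the order stood IL11, IL6, CXCL8, PTGS2, EREG, LIF, CCL5, STC1, LPL, STEAP4 and HGF. Among the same genes the largest fall belonged to ACTA2, the smooth muscle actin that marks myofibroblasts. ACTA2 was at 1550.4, 1609 and 1641 FPKM in BF-0d and at 12.1, 3.57 and 3.86 FPKM in BF-8d. It was high in every day 0 library and low in every day 8 library (log2 fold change -7.92, SE 0.55, adjusted p = 1.1e-09). ACTG2, CCN2, TAGLN, ASPN, MGP, MFAP5, FBLN2, TPM1, ECM2, DDAH1 and PI16 followed it.

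The 250 bases before the RefSeq start of ACTA2 are shown because it stands at the lower end of the comparison. Matches were sought, on either strand, to 5 motifs: the interferon-stimulated response element (GAAANNGAAA), the CArG box bound by serum response factor, the cell cycle homology region (TTTGAA), the hypoxia response element (ACGTG) and the direct repeat bound by PPARγ with RXRα (AGGTCANAGGTCA). Shares of all windows are given below over the 19505 such windows of protein-coding genes. The ACTA2 window is chr14:100886733-100886982 in Sscrofa11.1, read on the minus strand and outside the transcribed part of the gene.
ACTA2: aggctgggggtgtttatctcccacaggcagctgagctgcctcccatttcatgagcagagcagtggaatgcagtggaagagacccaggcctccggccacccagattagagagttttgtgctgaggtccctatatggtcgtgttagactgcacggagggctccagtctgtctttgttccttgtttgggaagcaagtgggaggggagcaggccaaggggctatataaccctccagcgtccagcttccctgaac
It held 0 exact matches to the 5 motifs, which says only that these letters were not there, and no base is therefore in capitals.

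**Figure D2:**
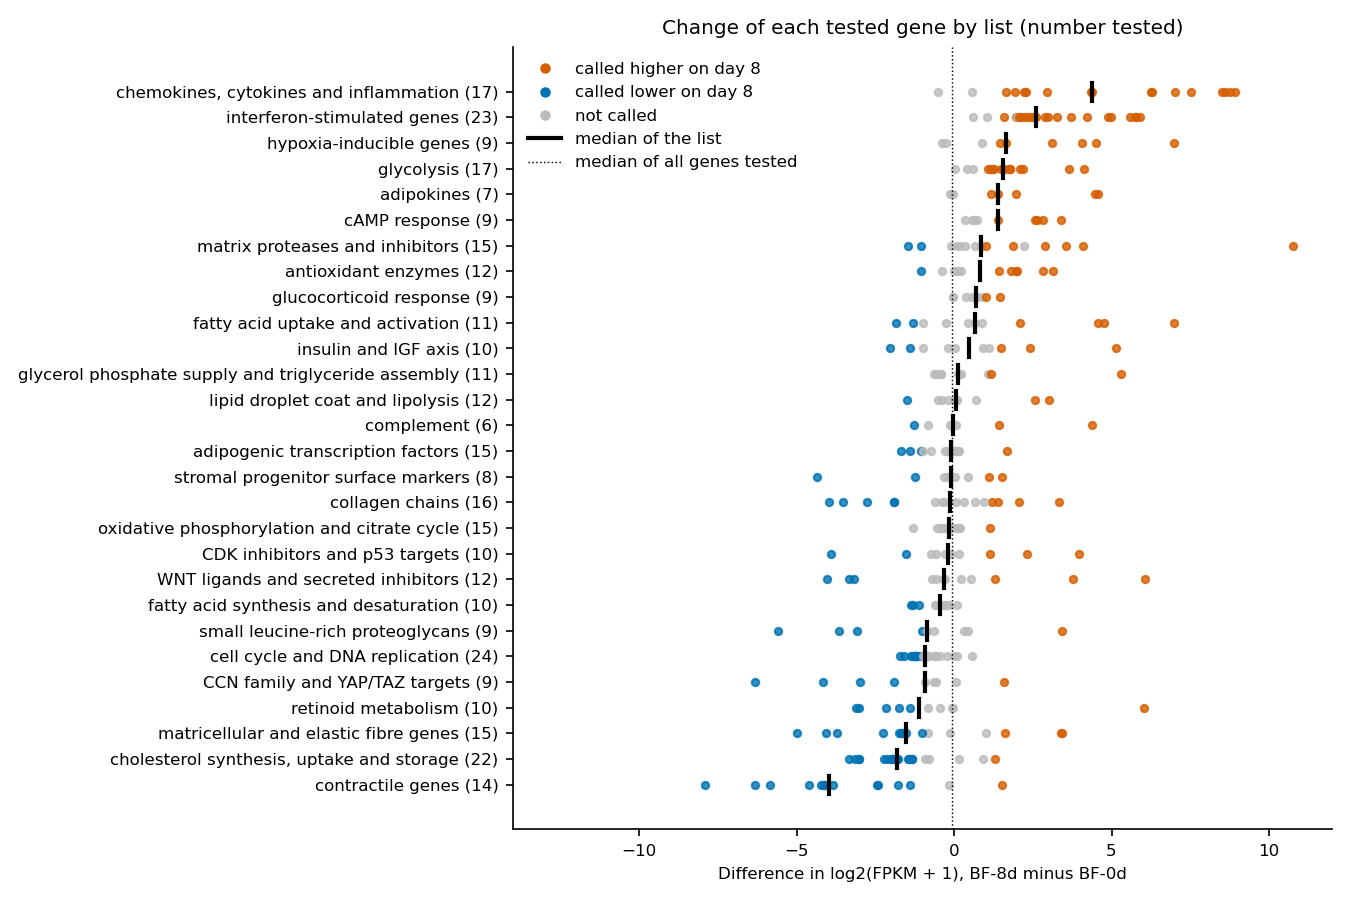
Difference in log2(FPKM + 1) between BF-8d and BF-0d for every tested gene of 28 lists, ordered by the list median (black bar), with the number of tested genes in brackets and the median of all genes tested as a dotted line. Chemokines and cytokines stand at the top with a median of 4.38 and contractile genes at the bottom with a median of -3.99.

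Of the 14 contractile genes tested, 12 fell, 1 rose and 1 was not called, beside 7.39% of all genes tested that fell, with a median of -3.99 against -0.06 for all genes tested. TAGLN, an actin-binding protein of smooth muscle, was at 691, 727 and 741 FPKM on day 0 and at 14.4, 9.62 and 10.7 FPKM on day 8 (log2 fold change -5.86, SE 0.47, adjusted p = 6e-09). TPM1, a tropomyosin that stabilises actin filaments, went from 392 ± 23.3 to 15.3 ± 3.91 FPKM (log2 fold change -4.62, SE 0.34, adjusted p = 1.9e-09). The smooth muscle γ-actin gene ACTG2 was lost almost wholly, from 119, 116 and 90.5 to 0.225, 0.461 and 0.379 FPKM (log2 fold change -6.33). Calponin, myosin light chain and leiomodin, encoded by CNN1, MYL9 and LMOD1, fell by 4.13, 4.12 and 4.22 on the log2 scale. SMTN, which encodes the smooth muscle protein smoothelin, was the member that rose, from 12.7, 11.5 and 11.7 to 47.7, 21.0 and 46.3 FPKM (log2 fold change 1.51, SE 0.26, adjusted p = 6.7e-05). MYH11, the smooth muscle myosin heavy chain, was low on both days (0.329 ± 0.0267 and 0.178 ± 0.0406 FPKM) and was not called.

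The CArG box is the site through which serum response factor acts on many contractile genes. Within 250 bases before the start it was found for 4 of the 12 contractile genes that fell (33.3%). Over the whole list it was found for 4 of 14 (28.6%), and in 1.31% of all such windows. All of these sites are shown, each with 10 bases on either side, and capitals mark the box.
TAGLN (chr9:44561555-44561584): gtcctcctgtCCATAAAAGGcttttcccgg
TAGLN (chr9:44561682-44561711): gtgtctttccCCAAATATGGagcctgtgtg
MYL9 (chr17:39788085-39788114): tgggtcgaagCCAAATAAGGccgggctgct
VCL (chr14:76699927-76699956): cccaccatgcCCTTATAAGGagcgcccggc
CNN2 (chr2:77385612-77385641): agccgcgcggCCTTATAAGGacatgtgcgc
The genes that carry them fell by between 5.86 (TAGLN) and 1.39 (VCL, the focal adhesion protein vinculin) on the log2 scale, and CNN2 and MYL9 by 2.46 and 4.12. ACTA2, ACTG2 and TPM1, which fell by 7.92, 6.33 and 4.62, had 0 exact boxes in this window. An exact box is CC, then only A or T, then GG, and boxes off by a base were not counted. The ACTA2 window above holds ccctatatgg and ccttgtttgg, which each miss the exact box by a base.

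CCN1 and CCN2 encode matricellular proteins that are widely used as readouts of the mechanosensitive coactivators YAP and TAZ. CCN2 was at 274, 382 and 375 FPKM on day 0 and at 4.64, 2.05 and 3.53 FPKM on day 8 (log2 fold change -6.32, SE 0.51, adjusted p = 8e-09). CCN1 went from 247 ± 19.1 to 13.5 ± 5.51 FPKM (log2 fold change -4.17, SE 0.24, adjusted p = 1.1e-10). Among the 9 tested genes of that list 4 fell, 1 rose and 4 were not called. Of all genes tested 7.39% fell and 6.28% rose. CCN4, a WNT-induced member of the family, was the 1 that rose (from 4.49 ± 0.432 to 16.00 ± 4.75 FPKM, log2 fold change 1.59). AMOTL2 and CCN5 were the others that fell, by 3.002 and 1.92 on the log2 scale.

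Genes of the extracellular matrix moved both ways. Of 16 collagen chains, 4 rose, 5 fell and 7 were not called, beside 6.28% and 7.39% of all genes tested that rose and fell, and the list median was -0.14. On day 0 the chains of fibrillar collagen I had the highest FPKM of the list. COL1A1 was at 5341, 6049.9 and 5869 FPKM on day 0 and at 776, 917 and 842 FPKM on day 8 (log2 fold change -2.77, SE 0.27, adjusted p = 6e-08). COL1A2 fell as well, from 5415 ± 161 to 1451 ± 62.9 FPKM (log2 fold change -1.90). COL3A1, the collagen III chain, was at 1711 ± 106 and 2131 ± 132 FPKM and was not called (log2 fold change 0.32, adjusted p = 0.12). COL14A1, a chain found along collagen fibrils, and COL11A1, a minor fibrillar chain, fell by 3.97 and 3.53 on the log2 scale. COL18A1 rose from 8.98 ± 1.34 to 99.9 ± 25.1 FPKM (log2 fold change 3.32, SE 0.27, adjusted p = 7.8e-09) and COL4A1 from 100.2 ± 10.4 to 423 ± 39.0 FPKM (log2 fold change 2.07, SE 0.28, adjusted p = 5.4e-06). COL4A2 and COL6A3 rose by 1.21 and 1.39 on the log2 scale, and the call of COL4A2 was lost in the fit of the 12 BF libraries.

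Of 15 elastic fibre and matricellular genes 3 rose and 9 fell, beside 6.28% and 7.39% of all genes tested, with a median of -1.52. ELN, which encodes elastin, was at 85.2, 94.4 and 100.3 FPKM on day 0 and at 5.17, 3.05 and 6.19 FPKM on day 8 (log2 fold change -4.06, SE 0.36, adjusted p = 2e-08). MGP, an inhibitor of calcification in matrix, went from 139.5 ± 18.9 to 3.98 ± 3.24 FPKM (log2 fold change -5.00), and the periostin gene POSTN from 174 ± 14.5 to 12.7 ± 4.35 FPKM (log2 fold change -3.72). The microfibril and basement membrane genes MFAP5 and FBLN2, which no list held, fell by 4.85 and 4.65 on the log2 scale. TNC, the tenascin of remodelling tissue, rose in every library, from 74.7, 79.4 and 75.1 to 848, 753 and 837 FPKM (log2 fold change 3.39, SE 0.13, adjusted p = 4.8e-13). COMP, a cartilage matrix protein, and FBLN1, a fibulin, rose by 3.44 and 1.60 on the log2 scale. COMP did not move steadily, since it stood at 345 ± 201 FPKM on day 2 and at 46.9 ± 11.5 FPKM on day 8.

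Small leucine-rich proteoglycans coat collagen fibrils and set their thickness. Of 9 tested, 1 rose and 4 fell, beside 6.28% and 7.39% of all genes tested. ASPN was at 449, 494 and 492 FPKM on day 0 and at 12.9, 5.39 and 10.1 FPKM on day 8 (log2 fold change -5.59, SE 0.47, adjusted p = 1.1e-08), and OGN fell by 3.67 on the log2 scale. DCN, the decorin gene, which had a higher FPKM than ASPN and OGN, fell from 1004 ± 52.1 to 497 ± 57.0 FPKM (log2 fold change -1.02), a change close to the threshold that was not called with median ratio scaling or without BF-0d replicate 2, BF-8d replicate 1 or BF-8d replicate 2. PRELP was the member that rose, from 8.37 ± 0.387 to 102 ± 21.6 FPKM (log2 fold change 3.44, SE 0.36, adjusted p = 2e-07).

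Of 15 proteases and their inhibitors 6 rose and 2 fell, beside 6.28% and 7.39% of all genes tested. Beside MMP1, the aggrecanases ADAMTS4 and ADAMTS5 rose, ADAMTS4 from 2.70, 3.19 and 2.68 to 41.2, 109.5 and 59.8 FPKM (log2 fold change 4.09, SE 0.36, adjusted p = 2e-08) and ADAMTS5 by 3.55 on the log2 scale. TIMP1, an inhibitor of the same protease family, rose from 96.1 ± 6.64 to 721 ± 156 FPKM (log2 fold change 2.88, SE 0.31, adjusted p = 2.8e-07). The plasminogen activators PLAU and PLAT were the members that fell (log2 fold changes -1.05 and -1.45), and the call of PLAU was lost with median ratio scaling and in the fit of the 12 BF libraries.

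Of 17 cytokines, chemokines and other genes of inflammation tested, 15 rose and 0 fell, beside 6.28% of all genes tested that rose, with a median of 4.38. IL6, the pleiotropic interleukin of inflammation, was at 3.91, 3.13 and 5.13 FPKM on day 0 and at 1313, 3289 and 2299.5 FPKM on day 8 (log2 fold change 8.75, SE 0.54, adjusted p = 3.4e-10). IL11, a relative of IL6 that signals through the same receptor subunit, was at 1.53, 1.504 and 2.16 FPKM on day 0 and at 1367, 1235 and 1340.3 FPKM on day 8 (log2 fold change 8.92, SE 0.77, adjusted p = 2.1e-08). IL11 was nearly equal in the 3 day 8 libraries, whereas IL6 was lowest in replicate 1.

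CXCL8, which attracts neutrophils, reached 2666, 4991 and 4328 FPKM from 8.44, 7.79 and 10.8 FPKM (log2 fold change 8.60, SE 0.77, adjusted p = 3.8e-08). PTGS2, the inducible cyclooxygenase that commits arachidonate to prostaglandins, went from 2.70, 5.05 and 6.87 to 1003, 2880.3 and 2932 FPKM (log2 fold change 8.51, SE 0.65, adjusted p = 4.5e-09), and PTGES, a prostaglandin E synthase, from 49.9 ± 1.46 to 401 ± 107 FPKM (log2 fold change 2.95). In all of these genes the groups were far apart. LIF, another cytokine of the IL6 family, and the chemokine CCL5 rose by 7.52 and 7.01 on the log2 scale. CSF2, the growth factor of granulocytes and macrophages, was listed at 0 in all 3 day 0 libraries and at 51.1, 115 and 73.2 FPKM on day 8. In total 46 genes were called higher with all BF-0d libraries at 0.

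The day 8 libraries differed among themselves in this list. Replicate 2 was the highest of the 3 for 15 of the 17 genes and replicate 1 the lowest for 16. CCL2, the monocyte chemokine, was at 485, 399 and 429 FPKM on day 0 and at 541, 3117 and 1540.2 FPKM on day 8, so that replicate 1 stood near the day 0 libraries. Its call (log2 fold change 1.65, SE 0.49, adjusted p = 0.0082) was lost without any 1 of 5 of the 6 libraries, without the filter, with quantile normalization and in the fits of 12 BF or of 6 libraries, and then 14 genes of the list were called. CSF1 and CXCL12, the members that were not called, had log2 fold changes of -0.52 and 0.58.

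Growth factors outside the lists stood among the largest rises. EREG, an epidermal growth factor receptor ligand, was at 0.319, 0.185 and 0.291 FPKM on day 0 and at 233, 489 and 426 FPKM on day 8 (log2 fold change 8.18, SE 0.48, adjusted p = 1.4e-10). HGF, the hepatocyte growth factor, went from 0.156, 0.161 and 0.129 to 96.3, 108 and 117 FPKM (log2 fold change 6.55, SE 0.40, adjusted p = 2e-10). STEAP4, a metalloreductase of fat tissue, rose from 0.127 ± 0.0555 to 124 ± 65.1 FPKM (log2 fold change 6.67).

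Interferon-stimulated genes encode antiviral proteins and are switched on when interferon binds its receptor. In the fit of all 24 libraries 20 of 23 rose and 0 fell, beside 6.28% and 7.39% of all genes tested, with a median of 2.61. This count depended on the libraries that set the spread. It was 14 in a fit of the 12 BF libraries and 0 in a fit of the 6 libraries compared, where the adjusted p was 0.037 for RSAD2 and 0.027 for CXCL10. Leaving out BF-8d replicate 2 gave 15 and leaving out BF-8d replicate 1 gave 22. RSAD2, which encodes the antiviral protein viperin, was at 6.75, 1.80 and 3.05 FPKM on day 0 and at 21.1, 1696 and 381 FPKM on day 8 (log2 fold change 5.77, SE 0.97, adjusted p = 6.6e-05). Replicate 2 was thus far above replicate 1, and the same order was found in the whole list. BF-8d replicate 2 was the highest and replicate 1 the lowest day 8 library for all 23 genes. CXCL10, an interferon-induced chemokine, went from 0.445, 0.370 and 0.186 to 7.86, 580.04 and 95.0 FPKM (log2 fold change 5.89, SE 1.03, adjusted p = 9.6e-05). For 17 of the 20 called genes the groups did not overlap, beside 2184 of the 2206 genes called in all. Over the 23 genes the mean of log2(FPKM + 1) was 3.06, 2.54 and 2.81 in the BF-0d libraries and 3.64, 7.78 and 6.57 in the BF-8d libraries. RIGI, a sensor of viral RNA, was at 11.7, 7.89 and 11.3 FPKM on day 0 and at 0.609, 305 and 184 FPKM on day 8 and was not called (adjusted p = 0.27). STAT2 and IRF9 were the others not called (log2 fold changes 1.04 and 0.59).

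**Figure D3:**
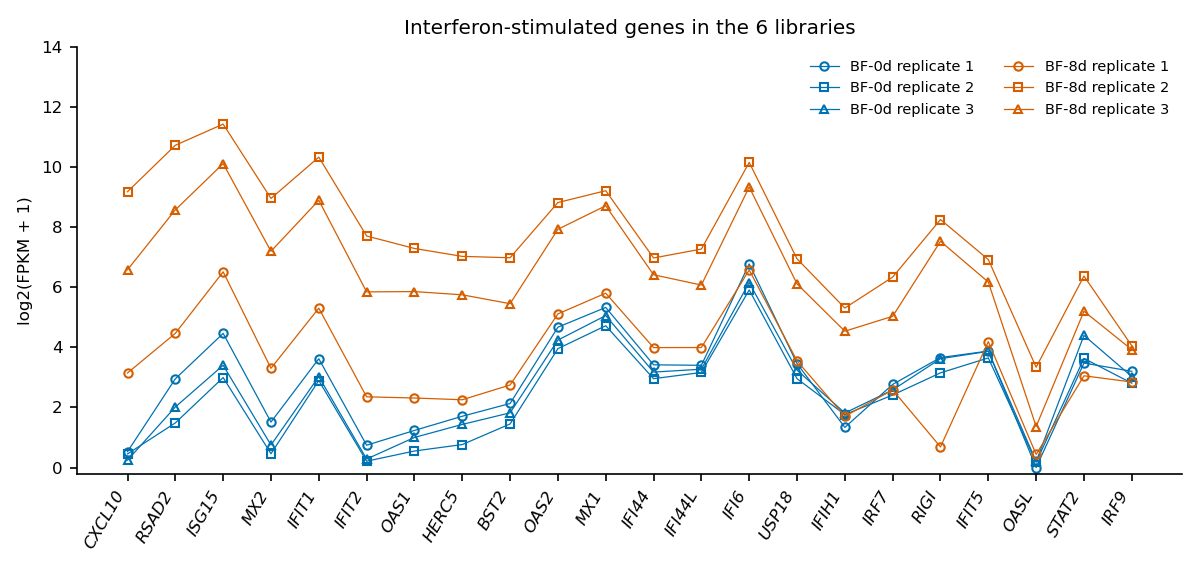
Levels of 22 of the 23 tested interferon-stimulated genes, as log2(FPKM + 1), in each BF-0d library (blue) and each BF-8d library (orange), with genes ordered by their mean change and lines that only join the points of a library. BF-8d replicates 2 and 3 lie above all day 0 libraries for the 22 genes drawn, and BF-8d replicate 1 is the lowest day 8 library for each of them.

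The response element of these genes was found within 250 bases before the start for 11 of the 19 called genes that had a window (57.9%). Over all listed genes that had a window it was found for 12 of 23 (52.2%), and in 2.99% of all windows. For RSAD2 the window is chr3:128897810-128898059, on the minus strand, with the element in capitals as it reads on that strand (it matches the motif on the other strand).
RSAD2: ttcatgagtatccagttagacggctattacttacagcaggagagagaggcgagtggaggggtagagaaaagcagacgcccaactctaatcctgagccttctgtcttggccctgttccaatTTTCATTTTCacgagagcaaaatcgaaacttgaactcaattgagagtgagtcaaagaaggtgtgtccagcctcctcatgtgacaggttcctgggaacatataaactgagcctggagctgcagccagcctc
Of the other 10 called genes that carried it, 4 are shown as examples with 1 site each, with 10 bases on either side and each read on the strand of the motif.
ISG15 (chr6:63363063-63363092): ttgggaaaagGAAACCGAAActgaagccga
BST2 (chr2:60305108-60305137): aacgaaaaaaGAAACCGAAActaaaagcct
USP18 (chr5:70183168-70183197): ccgccaaaccGAAAGCGAAActcagcggag
IFI44L (chr6:134679220-134679249): aaaaaaagaaGAAAACGAAActtatcagta
In order, the ubiquitin-like modifier ISG15, the tetherin gene BST2, the ISG15 protease gene USP18 and IFI44L rose by 5.73, 3.26, 2.32 and 2.50 on the log2 scale in the fit of all libraries, and the fit of the 6 libraries lost the calls of all 4. That of USP18 was also lost in the fit of the 12 BF libraries and without BF-0d replicate 2, BF-8d replicate 2 or BF-8d replicate 3.

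Lipid genes did not move as a block. LPL, the lipase that frees fatty acids from lipoproteins for uptake, was at 1.58, 2.76 and 2.33 FPKM on day 0 and at 611, 276 and 380.5 FPKM on day 8 (log2 fold change 6.98, SE 0.58, adjusted p = 1.5e-08). ACSL4, which activates long polyunsaturated fatty acids, rose from 21.3 ± 0.915 to 608 ± 59.96 FPKM (log2 fold change 4.77, SE 0.29, adjusted p = 1.5e-10), and ANGPTL4, an inhibitor of LPL, from 3.55 ± 0.176 to 108 ± 10.6 FPKM (log2 fold change 4.59, SE 0.27, adjusted p = 1.1e-10). ACSL1 rose by 2.08. The direct repeat of PPARγ with RXRα was in 0 of the 4 windows of the genes of this list that rose. It was in 0 of 13 windows over the whole list and in 0.0256% of all windows. The fatty acid binding protein gene FABP3 and the transporter gene SLC27A4 were the members that fell (log2 fold changes -1.85 and -1.29). Of the 11 genes of this list 4 thus rose and 2 fell, beside 6.28% and 7.39% of all genes tested. FABP4, the fatty acid binding protein of fat cells, was at 1.91, 1.75 and 2.41 FPKM on day 0 and at 5.996, 1.73 and 2.68 FPKM on day 8, so that the groups overlapped (log2 fold change 0.45, SE 0.24, adjusted p = 0.12).

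Around the lipid droplet, PLIN2, a coat protein found in many cell types, rose from 18.1, 19.1 and 18.5 to 203, 103 and 185 FPKM (log2 fold change 3.01, SE 0.23, adjusted p = 3.5e-09), and HILPDA, a droplet protein that inhibits lipolysis, by 2.58. MGLL, which completes lipolysis, was the member that fell, from 4.17 ± 0.678 to 0.863 ± 0.337 FPKM (log2 fold change -1.48). Of the 12 droplet and lipolysis genes 2 thus rose and 1 fell, beside 6.28% and 7.39% of all genes tested. Of 10 genes of fatty acid synthesis and desaturation 0 rose and 3 fell, beside 6.28% and 7.39% of all genes tested. These were the desaturase genes FADS1 and FADS2 and the elongase gene ELOVL6 (log2 fold changes -1.11, -1.37 and -1.298). FADS1 was not called with median ratio scaling, with quantile normalization, or without BF-8d replicate 2. FASN, the fatty acid synthase, was at 40.7 ± 0.196 and 27.2 ± 1.78 FPKM (log2 fold change -0.57, adjusted p = 0.00064), under the fold threshold.

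Of 15 transcription factors of adipogenesis, 1 rose and 3 fell, beside 6.28% and 7.39% of all genes tested. In the fit of the 12 BF libraries 1 rose and 1 fell. CEBPB, an early factor, rose from 10.3, 13.01 and 15.2 to 44.8, 43.1 and 40.7 FPKM (log2 fold change 1.68, SE 0.25, adjusted p = 1.1e-05). PPARG, the central regulator of fat cell formation, was at 3.11, 2.57 and 3.33 FPKM on day 0 and at 1.28, 0.486 and 1.16 FPKM on day 8, low on both days and lower on day 8 in every library (log2 fold change -1.04, SE 0.29, adjusted p = 0.0061). Its call was lost under both scalings, with a pseudocount of 0.1, without the filter, in the fit of the 12 BF libraries, and without any 1 of 5 of the 6 libraries. EBF1 and ZNF423, factors of preadipocyte commitment, fell by 1.41 and 1.70 on the log2 scale, and the call of EBF1 was lost in the fit of the 12 BF libraries. CEBPA was at 2.26 ± 0.338 FPKM on day 0 and at 2.35 ± 0.179 FPKM on day 8 (log2 fold change 0.04, SE 0.23), after 9.37 ± 0.880 FPKM on day 2.

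The labelled cell type was checked against markers. Defining genes of the mature fat cell were near 0. ADIPOQ, PLIN1 and LEP, which encode adiponectin, the perilipin of large droplets and leptin, were at or below 0.0735 FPKM in all 6 libraries and were not tested. Of the 4 mature adipocyte markers that were tested, LPL was the 1 that was called, beside 13.7% of all genes tested. Stromal fibroblast markers were high on both days, with a summed level of 13450 to 14690 FPKM over 6 genes on day 0 and of 5200 to 5765 FPKM on day 8. PDGFRA, the receptor that marks stromal progenitors, rose from 63.4, 84.9 and 82.7 to 149.5, 277 and 257 FPKM (log2 fold change 1.51, SE 0.24, adjusted p = 3.3e-05). PI16 and CD34, which mark early progenitors in fat, fell from 21.0 ± 1.53 to 0.0671 ± 0.0298 and from 1.55 ± 0.141 to 0.0682 ± 0.0721 FPKM (log2 fold changes -4.36 and -1.25), while NT5E, a mesenchymal surface enzyme, rose by 1.10.

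Markers of other cells were low with a few exceptions. All 9 myogenic markers summed to at most 0.124 FPKM in any of the 6 libraries. Of 7 endothelial markers 4 stayed under 0.1 FPKM in all libraries, among them CDH5 and KDR, whereas PECAM1 fell from 4.75 ± 0.344 to 1.67 ± 0.506 FPKM and ERG from 15.0 ± 0.577 to 6.67 ± 2.09 FPKM. Both scalings lost these calls, as did leaving out BF-8d replicate 1 for PECAM1, and for ERG the fit of the 12 BF libraries and leaving out BF-8d replicate 2 or any 1 of the BF-0d libraries. The leukocyte marker PTPRC and the macrophage receptor CSF1R were at or near 0 (at most 0.02 FPKM), and the 8 immune markers summed to 5.92 to 7.20 FPKM on day 0 and 14.5 to 19.5 FPKM on day 8. Among them TYROBP, an adaptor of myeloid receptors, rose from 0.421, 0.463 and 0.278 to 6.40, 6.14 and 6.76 FPKM (log2 fold change 2.42, SE 0.26, adjusted p = 2.8e-07). RGS5, a pericyte marker, rose from 0.0639, 0.0461 and 0.0344 to 6.55, 1.89 and 1.85 FPKM (log2 fold change 1.92), a call lost in the fit of the 12 BF libraries and without BF-8d replicate 1. The other 4 pericyte markers were not called, the list median was 0.01, and the 5 genes summed to 20.5 to 23.7 FPKM on day 0 and to 17.3 to 26.1 FPKM on day 8. In bulk RNA a change in the share of a cell type and a change of RNA per cell cannot be told apart, and the part of TYROBP-bearing cells in the results above was not tested.

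Of 7 secreted factors of fat tissue 5 rose, beside 6.28% of all genes tested. CFD, the complement factor also named adipsin, was at 9.98, 10.9 and 11.6 FPKM on day 0 and at 267, 237 and 336 FPKM on day 8 (log2 fold change 4.56, SE 0.36, adjusted p = 4.2e-09). AGT, the angiotensinogen gene, was at 3.42, 3.33 and 2.99 FPKM on day 0 and at 108, 87.4 and 88.9 FPKM on day 8 (log2 fold change 4.49, SE 0.21, adjusted p = 7e-12). In both the groups lay far apart. NAMPT and APLN rose by 1.98 and 1.16 on the log2 scale. Of 6 complement genes 2 rose and 1 fell, beside 6.28% and 7.39% of all genes tested. C3 rose from 4.26, 3.60 and 3.38 to 56.0, 167 and 102 FPKM (log2 fold change 4.39, SE 0.56, adjusted p = 2.9e-06) and CFB by 1.43, while CFI, which inactivates C3b, fell by 1.28. C3 was lowest in replicate 1 and highest in replicate 2, which was also the order of the interferon-stimulated genes.

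Of 22 genes of cholesterol synthesis, uptake and storage, 17 fell and 1 rose, beside 7.39% and 6.28% of all genes tested, with a median of -1.82. IDI1, the isopentenyl diphosphate isomerase, was at 37.1, 41.4 and 47.6 FPKM on day 0 and at 4.10, 2.40 and 3.40 FPKM on day 8 (log2 fold change -3.34, SE 0.16, adjusted p = 1e-11). SQLE, the squalene epoxidase, fell by 3.01 on the log2 scale. SREBF2, the transcription factor of this pathway, fell from 38.8 ± 2.02 to 13.9 ± 0.748 FPKM (log2 fold change -1.42). The gene that rose was SOAT1, which esterifies cholesterol for storage, from 4.20, 4.33 and 4.24 to 12.6, 11.0 and 12.3 FPKM (log2 fold change 1.299, SE 0.36, adjusted p = 0.0049). Its call was lost in the fit of the 12 BF libraries (adjusted p = 0.037) and without any 1 of the 6 libraries (adjusted p of 0.011 to 0.016), and its mean was higher on days 2 and 4 (28.1 ± 19.1 and 27.9 ± 8.44 FPKM).

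Of 17 genes of glycolysis, 14 rose and 0 fell, beside 6.28% and 7.39% of all genes tested, with a median of 1.55. PFKFB3, which makes the activator of phosphofructokinase, rose from 0.679, 0.719 and 0.701 to 17.1, 48.5 and 27.5 FPKM (log2 fold change 4.11, SE 0.45, adjusted p = 3.4e-07). ENO2, an enolase isoform, was at 0.830, 0.699 and 1.05 FPKM on day 0 and at 32.7, 12.5 and 25.8 FPKM on day 8 (log2 fold change 3.63, SE 0.33, adjusted p = 2.7e-08). The abundant enzymes moved less. GAPDH rose from 847 ± 43.7 to 2376 ± 73.3 FPKM (log2 fold change 1.49), ENO1 from 463 ± 10.6 to 1585 ± 63.2 FPKM (log2 fold change 1.77) and LDHA from 269.7 ± 7.61 to 1226 ± 117 FPKM (log2 fold change 2.18). GAPDH, often used as a reference transcript, was therefore not constant in this comparison.

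By contrast, 1 of 15 genes of oxidative phosphorylation and the citrate cycle was called, beside 13.7% of all genes tested. That gene was OGDH, the oxoglutarate dehydrogenase, which rose from 26.5 ± 1.85 to 59.2 ± 3.69 FPKM (log2 fold change 1.13, SE 0.15, adjusted p = 3.8e-06). The list median was -0.15. Of 9 hypoxia-inducible genes 6 rose, beside 6.28% of all genes tested, with a median of 1.65. VEGFA, the vascular growth factor, was at 31.9, 36.2 and 36.1 FPKM on day 0 and at 842, 749 and 842 FPKM on day 8 (log2 fold change 4.51, SE 0.35, adjusted p = 4.1e-09). STC1, the hormone stanniocalcin, was almost absent on day 0 (0.0530, 0.0192 and 0.0191 FPKM) and reached 159, 98.5 and 142 FPKM on day 8 (log2 fold change 6.997). EGLN3 and NDRG1 rose by 4.07 and 3.10 on the log2 scale. CA12 (log2 fold change -0.40) and STC2 (log2 fold change -0.27), of the same list, were not called. The hypoxia response element letters stood in 2 of the 6 windows of the genes that rose, and in 3 of 11 over the whole list. For glycolysis genes they stood in 6 of the 14 windows of those that rose, and in 9 of 18 over the whole list. The share of all windows was 18.7%.

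The inducers had been withdrawn by day 8. Of 9 cAMP response genes 5 rose, beside 6.28% of all genes tested, with NR4A2, an orphan nuclear receptor, at 3.76, 4.53 and 5.29 FPKM on day 0 and at 62.1, 53.6 and 56.1 FPKM on day 8 (log2 fold change 3.40, SE 0.45, adjusted p = 3.6e-06). PDE4B, a phosphodiesterase that degrades cAMP, rose from 3.29 ± 1.04 to 31.8 ± 16.2 FPKM (log2 fold change 2.83, SE 0.34, adjusted p = 1.2e-06). Of 9 glucocorticoid response genes the kinase gene SGK1 and the transcription factor gene KLF9 rose (log2 fold changes 1.46 and 1.03), beside 6.28% of all genes tested. The call of KLF9 was lost in the fit of the 12 BF libraries and without BF-0d replicate 1 or BF-8d replicate 1.

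Several genes stood higher in the middle of the culture than at its end, a course that the net comparison does not show. Of 11 genes of glycerol phosphate supply and triglyceride assembly, PCK1 and LPIN1 rose and 0 fell, beside 6.28% and 7.39% of all genes tested. LPIN1, a phosphatidate phosphatase, went from 3.04 ± 0.190 to 8.24 ± 1.25 FPKM (log2 fold change 1.19, SE 0.15, adjusted p = 2.1e-06). PCK1, which feeds glycerol phosphate to triglyceride synthesis, was at 0.0322, 0.0582 and 0.115 FPKM on day 0, at 611, 461 and 24.5 FPKM on day 2 and at 49.0, 22.4 and 64.3 FPKM on day 8 (log2 fold change 5.31, SE 0.78, adjusted p = 1.4e-05). The day 2 libraries spread widely, and the day 8 libraries still lay far above those of day 0. IGF1, the insulin-like growth factor, went from 14.6 ± 1.60 FPKM on day 0 over 188 ± 133 FPKM on day 4 to 43.7 ± 10.6 FPKM on day 8 (log2 fold change 1.49, SE 0.43, adjusted p = 0.0064), and its call was lost without any 1 of the 6 libraries, without the filter and in the fit of the 12 BF libraries. The gene that the study names GK, glycerol kinase, was at 2.87 ± 0.367, 13.98 ± 9.11, 20.7 ± 12.2 and 7.48 ± 3.05 FPKM on days 0, 2, 4 and 8 and was not called over the whole culture (log2 fold change 1.07, SE 0.40, adjusted p = 0.035). CAT, the catalase, stood at 32.3 ± 0.382 FPKM on day 0, at 128 ± 67.0 FPKM on day 2 and again at 32.3 ± 5.43 FPKM on day 8 (log2 fold change -0.01, SE 0.39, adjusted p = 0.99).

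**Figure D4:**
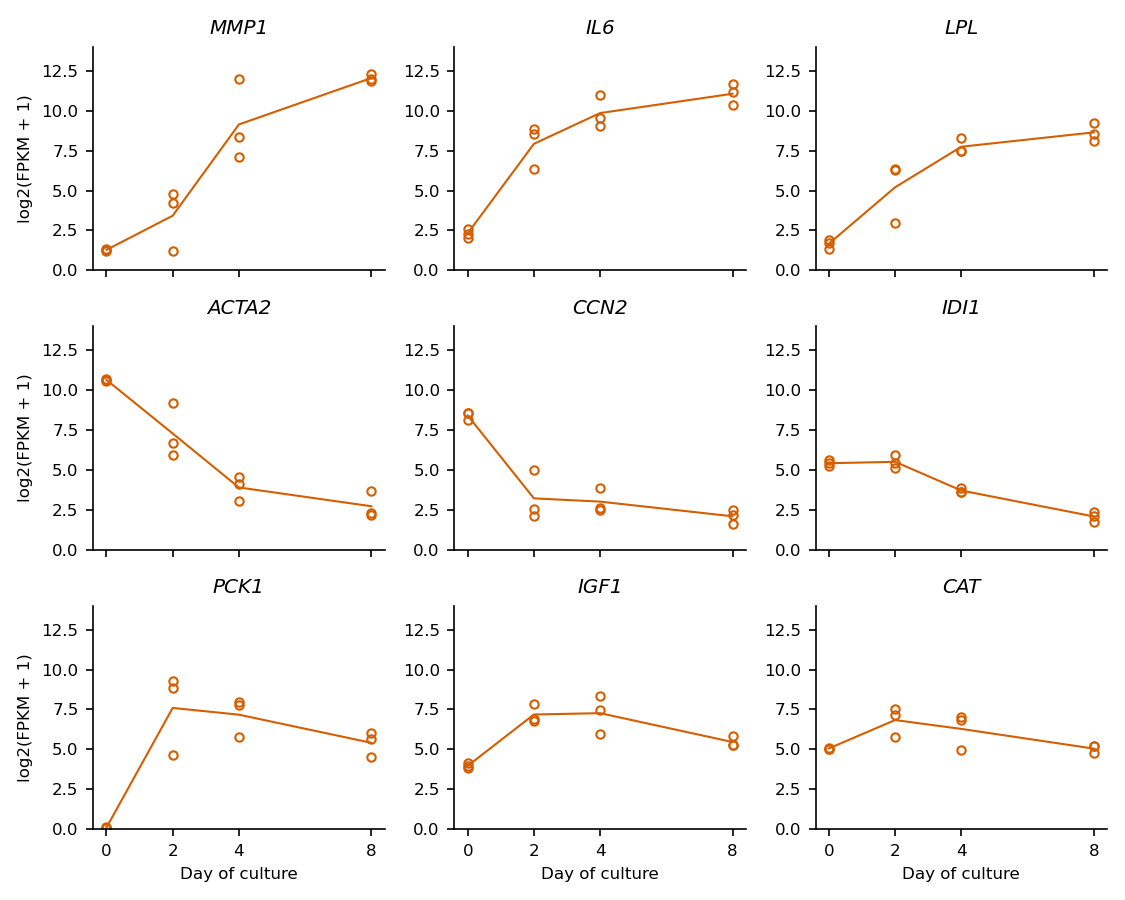
Levels of 9 genes in BF cells, as log2(FPKM + 1), on days 0, 2, 4 and 8 of culture, with a circle per library and a line through the means of 3 libraries. MMP1, IL6 and LPL end at their highest mean, ACTA2, CCN2 and IDI1 at their lowest, and PCK1, IGF1 and CAT have a mean on day 2 or 4 above that of day 8.

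Of 10 genes of the insulin and insulin-like growth factor axis 3 rose, IGF1 included, and 2 fell, beside 6.28% and 7.39% of all genes tested. IGFBP5 was at 29.4, 33.3 and 28.2 FPKM on day 0 and at 995, 1085 and 1234 FPKM on day 8 (log2 fold change 5.14, SE 0.50, adjusted p = 8.5e-08), and IGFBP2 rose from 169 ± 28.2 to 909.6 ± 93.7 FPKM (log2 fold change 2.43, SE 0.43, adjusted p = 9e-05). IGFBP6 and IGFBP7 fell by 1.40 and 2.05 on the log2 scale. The receptors IGF1R and INSR were not called (log2 fold changes 0.92 and -0.18), though IGF1R was called higher under both scalings.

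Of 10 genes of retinoid metabolism tested, 1 rose and 5 fell, beside 6.28% and 7.39% of all genes tested. CYP26B1, which degrades retinoic acid, was at 0.864, 1.11 and 1.23 FPKM on day 0 and at 129, 129 and 145 FPKM on day 8 (log2 fold change 6.03, SE 0.23, adjusted p = 4.5e-13), with little spread in either group. ALDH1A3, which makes retinoic acid, went from 29.4 ± 2.00 to 2.63 ± 1.13 FPKM (log2 fold change -3.11, SE 0.40, adjusted p = 2.5e-06), and DHRS3, a retinaldehyde reductase, from 19.9 ± 3.21 to 1.64 ± 0.858 FPKM (log2 fold change -3.02, SE 0.30, adjusted p = 9.8e-08). STRA6, CRABP2 and RDH10 fell by 1.76, 2.17 and 1.41 on the log2 scale.

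WNT ligands, their secreted inhibitors and other genes of that list, AXIN2 among them, moved both ways. Of the 12 tested 3 were higher and 3 lower, beside 6.28% and 7.39% of all genes tested. WNT5A, a ligand of noncanonical WNT signalling, was at 1.06, 1.01 and 1.18 FPKM on day 0 and at 145, 129 and 145 FPKM on day 8 (log2 fold change 6.08, SE 0.48, adjusted p = 5.2e-09). SFRP1, a soluble inhibitor, rose from 11.09 ± 0.716 to 164 ± 8.60 FPKM (log2 fold change 3.77, SE 0.43, adjusted p = 5.5e-07), and AXIN2, a feedback target of β-catenin, by 1.301. The related inhibitors SFRP2 and SFRP4 fell, SFRP2 from 923, 1003 and 1039 to 124, 84.3 and 87.1 FPKM (log2 fold change -3.33, SE 0.38, adjusted p = 5.3e-07) and SFRP4 by 4.04, and DKK2 by 3.19. SFRP1 and SFRP2 thus moved in opposite directions, and SFRP1 had the higher level on day 8 and SFRP2 on day 0.

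Of 12 antioxidant enzymes 6 rose and 1 fell, beside 6.28% and 7.39% of all genes tested. SOD3, the extracellular superoxide dismutase, rose from 38.2 ± 3.77 to 349 ± 52.3 FPKM (log2 fold change 3.15, SE 0.34, adjusted p = 3.2e-07), and NQO1, a quinone reductase controlled by NRF2, from 8.42, 10.6 and 11.11 to 59.8, 83.9 and 87.1 FPKM (log2 fold change 2.81, SE 0.25, adjusted p = 2.2e-08). TXNRD1 and PRDX1 rose by 2.01 and 1.82 on the log2 scale. GPX4, which removes lipid peroxides, fell from 93.4 ± 13.1 to 44.9 ± 3.06 FPKM (log2 fold change -1.03), close to the threshold and not called with median ratio scaling or without BF-0d replicate 3 or BF-8d replicate 2.

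Of 24 cell cycle genes tested, 10 fell and 0 rose, beside 7.39% and 6.28% of all genes tested, with a median of -0.91. CCNB1, the mitotic cyclin B1, was at 4.57, 4.55 and 4.73 FPKM on day 0 and at 0.846, 0.940 and 0.868 FPKM on day 8 (log2 fold change -1.58, SE 0.23, adjusted p = 1.3e-05), and CDC20, an activator of the anaphase complex, fell by 1.73. At such levels the added 1 FPKM weighs on the difference, and with a pseudocount of 0.1 the count was 17. The letters of the cell cycle homology region stood in 3 of the 9 windows of genes that fell and in 7 of 28 over the whole list, beside 12.5% of all windows. Inhibitors of the cycle did not move together. CDKN2B rose from 3.95, 4.82 and 4.94 to 34.2, 19.6 and 28.6 FPKM (log2 fold change 2.32, SE 0.24, adjusted p = 1.2e-07) and CDKN1A from 180.3 ± 10.04 to 398 ± 66.2 FPKM (log2 fold change 1.13, not called with quantile normalization), while CDKN2C fell by 1.53. GDF15, a stress cytokine, rose by 3.95 and GADD45A, a stress sensor, fell from 53.7, 61.2 and 67.7 to 5.02, 1.68 and 3.35 FPKM (log2 fold change -3.90, SE 0.22, adjusted p = 8.8e-11).

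The change from day 0 to day 8 was set beside that of IMF cells cultured in the same way, by a contrast of the changes. It was called for 804 of 16135 genes (4.98%). Levels of day 0 differ between the depots, and the contrast tests the change only. ACTA2 fell farther in BF cells, by 7.92 against 3.29 in IMF cells, which held 191 ± 7.97 FPKM on day 8 (difference 4.63, SE 0.77, adjusted p = 0.00039). TAGLN (difference 3.87, SE 0.66, adjusted p = 0.00044) and ASPN (difference 4.27, SE 0.66, adjusted p = 0.00017) also fell farther in BF cells. POSTN fell in BF cells, whereas in IMF cells it stood at 20.1 ± 4.25 FPKM on day 0 and at 91.9 ± 17.3 FPKM on day 8 (difference 5.86, SE 0.53, adjusted p = 2.5e-07). PLIN2 was at 25.6, 23.6 and 22.3 FPKM in IMF-0d and at 25.8, 24.03 and 23.2 FPKM in IMF-8d, which overlapped, so that its rise in BF cells differed (difference -2.98, SE 0.33, adjusted p = 3.9e-06). ANGPTL4 was likewise at 6.97 ± 1.28 and 7.12 ± 1.88 FPKM in IMF cells (difference -4.57, SE 0.38, adjusted p = 1.1e-07). CYP26B1 (difference -4.24, SE 0.33, adjusted p = 3.6e-08), HGF (difference -3.99, SE 0.57, adjusted p = 8.1e-05) and EREG (difference -3.89, SE 0.68, adjusted p = 0.00054) rose farther in BF cells.

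Of the 23 interferon-stimulated genes 17 were called in the contrast, beside 4.98% of all genes tested. RSAD2 was at 52.6, 34.0 and 50.4 FPKM in IMF-0d and at 6.20, 8.95 and 5.33 FPKM in IMF-8d, and thus had its high level at the other end of the culture (difference -8.35, SE 1.37, adjusted p = 0.00036). The median change of the list was -1.47 in IMF cells and 2.61 in BF cells. Both the spread among BF-8d libraries described above and the level of IMF-0d enter this contrast.

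MMP1, IL11, IL6, CXCL8, PTGS2 and LPL were not called in the contrast. Their changes in IMF cells were 6.83, 8.35, 6.71, 7.10, 7.13 and 5.86 on the log2 scale, beside 10.77, 8.92, 8.75, 8.60, 8.51 and 6.98 in BF cells, and a p above the threshold does not show that they were equal. Over the 56 genes named here that were called in the contrast, the change of BF cells was the higher in 27 and the lower in 29, with opposite signs in 14. Naming went by the change in BF cells, by a fixed set or by values already seen. This split therefore does not stand for all 804 genes called. For MMP1 the difference was -3.94, with BF-8d at 4283 ± 616 and IMF-8d at 448 ± 139.9 FPKM.

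**Figure D5:**
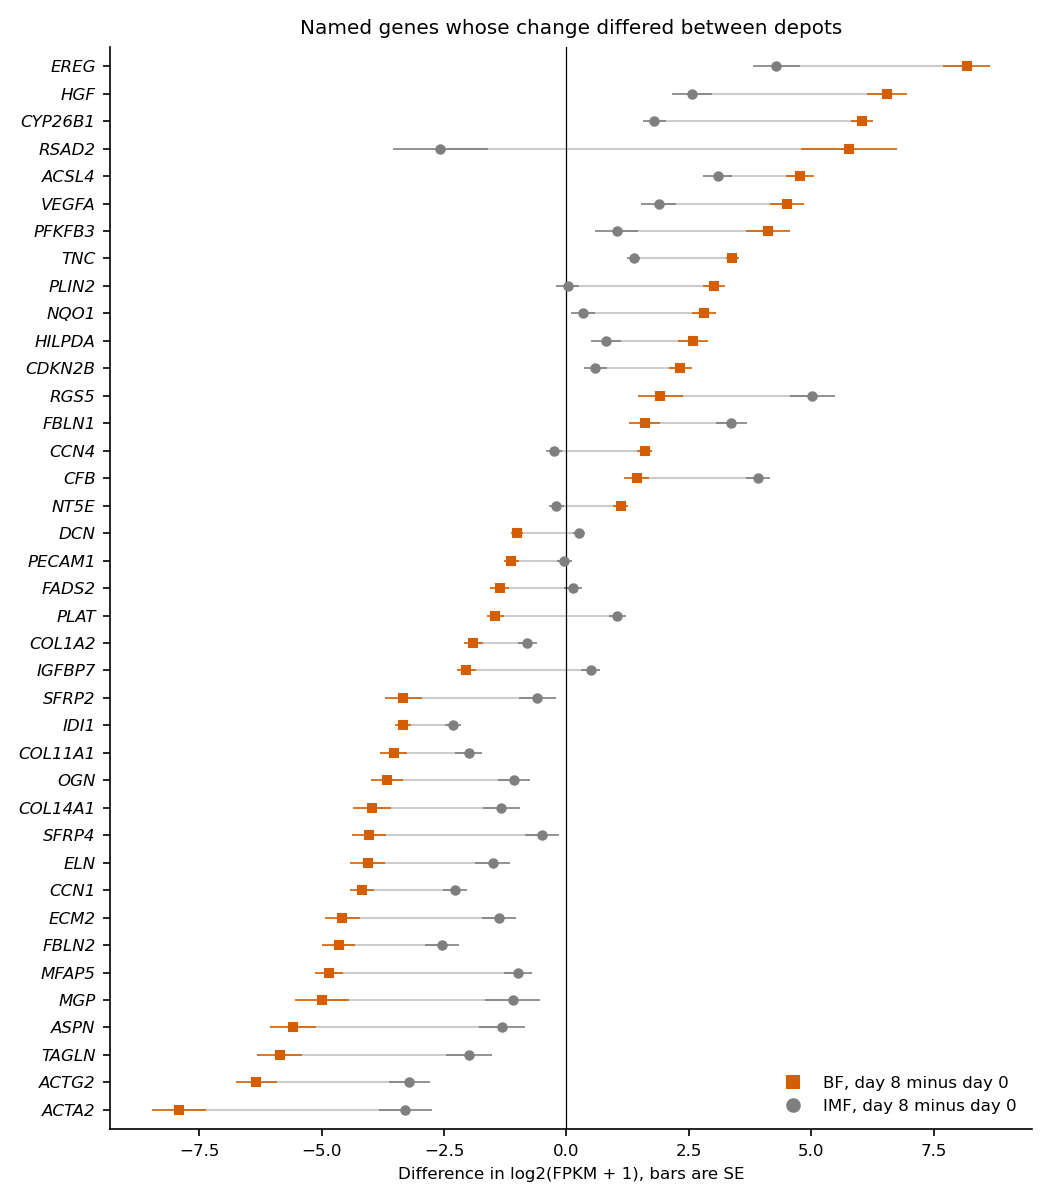
Change in log2(FPKM + 1) from day 0 to day 8 in BF cells (squares) and IMF cells (circles), with SE, for the 39 genes drawn, which the rule named and whose change was called as different between the depots. In 14 of them the change of BF cells is the higher and in 25 the lower, and in 7 the signs are opposite. Over all 56 genes named in the text and called in the contrast these counts are 27, 29 and 14.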

How the data were processed

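RNA of BF and IMF cells was sequenced by the study on days 0, 2, 4 and 8 with 3 libraries per group. Reads were aligned by the authors to Sscrofa11.1 with HISAT2 and assembled with StringTie 1.3.4d, and the deposited values are FPKM per gene, which carry no read depth. The authors tested counts with DESeq2 1.6.3, and those counts were not used here. All columns of the table could be matched to a sample.

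FPKM were tested as log2(FPKM + 1) with limma 3.58.1 in R 4.3.3 (lmFit and eBayes with trend and robust), with one mean for each of 8 groups over all 24 libraries and 16 residual degrees of freedom, on 16135 of 25462 genes whose FPKM summed to more than 1. The study's thresholds were kept (adjusted p under 0.01 and a log2 fold change of at least 1 in size). Fitting all libraries assumes that the groups share their spread. The procedure was tested on simulated data. Lists were described by counts and medians, with no test.

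The comparison, members and lists were chosen with earlier results of these data known. Genes were named by rule: the 12 largest rises and falls, the 2 largest called rises and falls of each list, all called members where a list held 3 or fewer in a direction, and a fixed set of key genes. Further list members and markers, such as CCL2, RIGI, GAPDH, POSTN, ANGPTL4 and the carriers of a motif shown, were named after their values were seen. Some genes and sequences that the rule names are not reported here, though list counts include them. Promoters are from RefSeq on Sscrofa11.1. The alternatives were other pseudocounts, filters, scalings, priors, sample sets, a replicate block, and leaving out each library.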

Additional observations from a re-analysis of the deposited data

Results flagged for a closer look

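The following genes were singled out because their change from day 0 to day 8 differed between the depots by limma's contrast at an adjusted p under 0.01 and by at least 1 on the log2 scale. Each value is the change of IMF cells minus the change of BF cells on the log2 scale.

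Among genes that were lower in BF cells on day 8, the difference was above 0 for the following. It was 5.86 for POSTN, 4.63 for ACTA2, 4.27 for ASPN, 3.90 for MGP, 3.87 for TAGLN, 3.86 for MFAP5, 3.53 for SFRP4, 3.20 for ECM2, 3.13 for ACTG2, 2.74 for SFRP2, 2.64 for COL14A1, 2.60 for OGN, 2.55 for ELN, 2.55 for IGFBP7, 2.50 for PLAT, 2.11 for FBLN2, 1.90 for LMOD1, 1.89 for CCN1, 1.54 for COL11A1, 1.51 for STRA6, 1.503 for FADS2, 1.28 for DCN, 1.09 for COL1A2, 1.08 for PECAM1, 1.07 for RDH10 and 1.03 for IDI1.

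Among genes that were higher in BF cells on day 8, the difference was below 0 for the following. It was -6.11 for CSF2, -4.57 for ANGPTL4, -4.24 for CYP26B1, -3.99 for HGF, -3.89 for EREG, -3.09 for PFKFB3, -2.98 for PLIN2, -2.69 for NAMPT, -2.62 for VEGFA, -2.47 for NQO1, -2.02 for TNC, -2.01 for EGLN3, -1.85 for CCN4, -1.77 for HILPDA, -1.73 for CDKN2B, -1.68 for ACSL4, -1.64 for NDRG1, -1.62 for PRDX1, -1.57 for TXNRD1, -1.31 for NT5E and -1.11 for LDHA.

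For genes that were higher in BF cells on day 8, the difference was above 0 in these cases. It was 3.11 for RGS5, 2.48 for CFB and 1.76 for FBLN1.

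For interferon-stimulated genes the difference was -8.35 for RSAD2, -7.60 for ISG15, -4.11 for BST2, -3.97 for IFI44L, -3.85 for USP18 and -1.82 for IRF9. These values include the 3 BF-8d libraries that lay far apart for these genes, and the part of that spread in them was not tested.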

How the results depend on the processing

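The number of called genes was 1988 to 2836 under the alternatives other than a pseudocount of 0.1, which gave 3939, of which 1755 were higher and 2184 lower on day 8. A smaller pseudocount enlarges the change of genes with low FPKM. Leaving out a library gave 2055 to 2305 calls, and 637 to 987 for the difference between depots. The deviations of same-numbered libraries of BF-0d and BF-8d from their group means correlated at -0.01, -0.05 and 0.04. These values do not show whether same-numbered libraries shared an animal or culture, which was not tested. With a replicate block 2205 genes were called and 783 for the difference between depots. Calls of PPARG, IGF1, SOAT1 and CCL2 were lost under several alternatives, as given beside their values. FPKM give no read depth, so the counting error of low genes is unknown.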
